A study of Mus musculus with 12 samples.

Results

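The genotype difference between APC-KO and APC-WT tumours was taken as the mean of the differences without and with doxycycline (Dox), over 6 APC-KO and 6 APC-WT tumours with the Dox state kept as a factor. Of 18193 genes with a probe set of a single symbol, 11070 were tested, those whose mean log2 value over the 12 arrays reached 5.55, the median of all probe sets; the other 7123 were set aside. The genes described in most detail are the 1355 that held in both states: they passed for the mean effect, passed within each Dox state on its own, and kept 1 direction throughout. A gene passed where the adjusted p of a moderated linear model (limma, Benjamini-Hochberg over all tested genes) was under 0.05.

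All tumours came from MC38, a mouse colon carcinoma line, with an inducible hairpin against Tdo2 (ishTDO2), placed orthotopically in the cecum of C57BL/6 mice. The 4 groups of 3 tumours were APC-WT no Dox, APC-WT Dox, APC-KO no Dox and APC-KO Dox, where Dox in the drinking water served to switch on the hairpin. The series set out to describe the transcriptome of APC-intact and APC-deleted cells around the knockdown of TDO2, an enzyme of tryptophan breakdown. Ages, the deleted part of Apc, and whether APC-KO cells were 1 clone or a pool are not given in the labels, nor whether each tumour was taken from its own mouse. The p-values therefore reflect only how far these samples scatter, and that scatter may be technical. The hairpin was carried by every group, and Dox without the hairpin was not analysed here.

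APC is the scaffold of a complex in which beta-catenin is phosphorylated and marked for degradation, and loss of APC is the classical first lesion of colon tumours. Stabilised beta-catenin enters the nucleus and acts with TCF/LEF factors on target genes, among them feedback inhibitors of the Wnt pathway such as Axin2, Apcdd1 and Nkd1. APC also binds microtubules and takes part in cell adhesion and migration.

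The values are log2 expression values from arrays, and differences are APC-KO minus APC-WT on that scale, with the standard error of the fit. Array medians lay between 5.54 and 5.58, and arrays of 1 group correlated at 0.995 or more. RNA of host cells was measured with that of the tumour cells: Lyz2, the lysozyme of macrophages, lay between 12.9 and 13.42. Of the markers of colon epithelium, Krt8 (7.2 to 11.65) and Epcam (7.04 to 7.43) lay over the floor of 5.55, Cdh1 lay around it (4.89 to 6.17), and Krt18, Krt19, Krt20, Vil1, Muc2 and Cdx2 had means under it. The keratin and crypt markers that define colon epithelium were thus largely at the level of dim probe sets in all 4 groups.

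Apc itself was read by 4 probe sets. The one of mean 7.27 lay at 7.57, 7.72 and 7.84 (lowest, median, highest) in APC-WT and at 6.74, 6.82 and 7.02 in APC-KO tumours, a fall of -0.89 ± 0.06 (adjusted p over all probe sets 3.66e-08) with no overlap between the genotypes. The probe set of mean 6.13 fell as well (-0.45 ± 0.08, 3.92e-04), and the brightest, of mean 8.39, moved by -0.17 ± 0.05 (0.0239). These 3 pointed the same way and by different amounts, and the fourth, of mean 3.13, was too dim to read (-0.08 ± 0.06). The call of the brightest probe set was lost without 1 of 5 arrays in turn (replicate 1 of APC-WT no Dox, replicates 2 and 3 of APC-WT Dox, replicate 2 of APC-KO no Dox, replicate 1 of APC-KO Dox; adjusted p 0.0546 to 0.0621). The brightest read -0.10 without Dox (limma adjusted p 0.416) and -0.24 with it (0.0443). Apc, read by this probe set, is therefore not among the 1355 genes that held in both states. The probe sets of mean 7.27 and 6.13 passed in each state, at -0.84 and -0.41 without and -0.94 and -0.49 with Dox. Which of the probe sets lie in the deleted part is not stated, and host cells carry an intact Apc gene. The 3 probe sets of Tdo2 all lay under the floor and read -0.06, 0.01 and -0.02 between the genotypes.

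The genotypes differed at many genes, mostly by small amounts. For the mean effect 4044 genes passed (36.5% of those tested), 2315 higher in APC-KO (20.9%) and 1729 lower (15.6%), while the median over all tested genes was 0.014 and the median size 0.11. Without Dox 2753 genes passed (24.9%) and with Dox 2205 (19.9%). Those that held in both numbered 1355 (12.2%), 796 higher (7.19%) and 559 lower (5.05%). With medians equalized 697 of 1400 were higher, and after quantile normalization 758 of 1430. The 1355 genes made up 33.5% of the genes that passed for the mean effect, 49.2% of those that passed without Dox and 61.5% of those that passed with it. A further 1851 genes passed for the mean and in only 1 state, 1135 without Dox and 716 with it, and 838 passed only for the mean. The count with Dox rested most on single arrays: it was 1291 without APC-WT Dox replicate 3, 1334 without APC-WT Dox replicate 2 and 1451 without APC-KO Dox replicate 3.

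No gene passed the interaction test, limma's test of the difference between the within-state differences, which does not show that the 2 Dox states act alike (unadjusted p under 0.05 at 1312 genes; smallest adjusted p 0.129). Without APC-WT no Dox replicate 3 that count was 119, without APC-KO no Dox replicate 1 it was 1, and with array quality weights 13. Across the 11070 genes the within-state differences, which share no tumour, had a Pearson correlation of 0.68 and a Spearman correlation of 0.629, given as a description since genes are not independent. Only 4 genes passed in both states with opposite signs. They were S100a8 (2.94 without and -2.13 with Dox) and S100a9 (3.13 and -2.35), the subunits of calprotectin in neutrophils, the neutrophil chemokine Cxcl2 (2.09 and -1.73), and Arhgap11a (-0.25 and 0.21). At the edge of the rule, Bfar (0.20) and Fh1 (0.24) were counted, with adjusted p 0.0498 and 0.0495 in the weaker state. Tomm40 (0.25) and Dtwd1 (0.24) just missed, at 0.0502 and 0.0503.

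**Figure D1:**
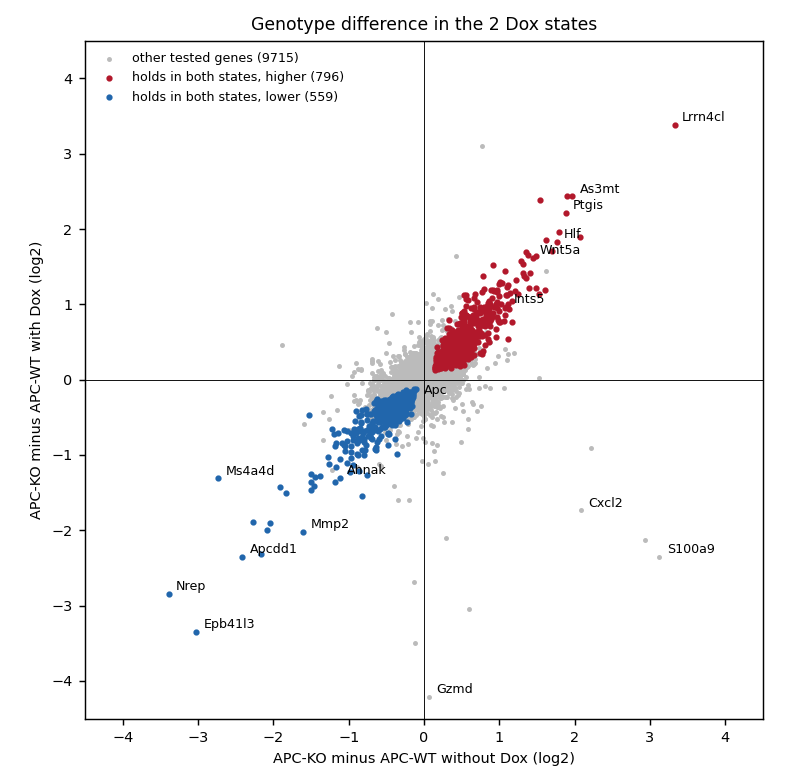
Each point is 1 of 11070 tested genes, with its APC-KO minus APC-WT difference without Dox on the horizontal and with Dox on the vertical axis (log2). The 796 red and 559 blue genes hold in both states and lie along the diagonal, with Lrrn4cl at 3.33 and 3.38 and Nrep at -3.39 and -2.85, while S100a9 and Cxcl2 lie in the lower right.

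Among the 1355 genes the median size of the difference was 0.38. The values of the 6 APC-KO and 6 APC-WT tumours did not overlap at 1162 of them, against 15.6% of all tested genes, a share that the rule itself raises. At least 2-fold differences were seen at 82 genes (0.741% of those tested), 50 higher and 32 lower. At 58 of the 82 every array of both genotypes read over the floor.

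The gene with the largest rise was Lrrn4cl on chromosome 19. It lay at 6.13, 6.46 and 6.92 in APC-WT and at 9.24, 9.96 and 10.35 in APC-KO tumours (lowest, median, highest), a difference of 3.35 ± 0.15 (adjusted p 3.79e-09), about 10.2-fold. All 6 APC-KO tumours lay more than 2 log2 units over the highest APC-WT tumour, and Dox left this gap in place (3.33 without, 3.38 with).

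Several other strong risers encode enzymes. As3mt, the arsenic methyltransferase, lay at 4.98, 5.42 and 5.86 in APC-WT and 7.39, 7.62 and 7.82 in APC-KO tumours (2.2 ± 0.14, adjusted p 5.17e-08). Ptgis, which makes prostacyclin, lay under the floor on all 6 APC-WT arrays (4.97, 5.11 and 5.44) and at 6.9, 7.21 and 7.44 in APC-KO, at least 3.09-fold higher against the floor. In both, the dimmest APC-KO tumour read over the brightest APC-WT tumour. Elovl4, an elongase of very long fatty acids, rose by 1.70 ± 0.14, and Gsta4, the glutathione transferase that handles the lipid peroxidation product 4-hydroxynonenal, by 1.43 ± 0.06. For Gsta4 the spread was narrow, 6.62 to 6.88 against 8.02 to 8.29.

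Secreted and surface proteins formed another part of the top 15. Scara5, a scavenger receptor for ferritin, lay at 6.15, 6.47 and 6.89 in APC-WT and 8.01, 8.47 and 8.98 in APC-KO tumours (1.97 ± 0.11), though a second, dim probe set read only 0.17 ± 0.09. The secreted Angptl7 rose by 1.87 ± 0.17 and Scube3 by 1.52 ± 0.13. Alcam, the adhesion molecule CD166, rose by 1.43 ± 0.08, and 4 of its 5 probe sets gave 1.34 to 1.49. Neto2, an accessory subunit of kainate receptors, rose by 1.99 ± 0.25, with 1 APC-KO tumour (Dox replicate 2, 6.29) far under the other 5 (7.48 to 8.18). The list was completed by the transcription factor Hlf (1.79 ± 0.10), the planar polarity protein Prickle1 (1.74 ± 0.10), the ligand Wnt5a (1.53 ± 0.14), and the X-linked Morc4 (1.56 ± 0.06) and Armcx1 (1.52 ± 0.09). Other genes past 2-fold, picked here after their values were seen, were the tissue factor F3 (1.35 ± 0.10), which starts blood clotting, and the urea transporter Slc14a1 (1.41 ± 0.10). Vegfd, a ligand of lymphatic vessel growth, read 1.26 ± 0.09, and the L-type calcium channel subunit Cacna1c 1.16 ± 0.11.

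The gene with the largest fall was Epb41l3, which encodes protein 4.1B of the membrane skeleton. It lay at 8.7, 8.79 and 9.19 in APC-WT and at 5.51, 5.65 and 5.93 in APC-KO tumours, a fall of -3.19 ± 0.09 (adjusted p 2.64e-11). A second probe set fell by -3.08 ± 0.11, but with all its probe sets averaged the fall was smaller, -2.19. Nrep, known as P311, fell by -3.12 ± 0.09, from 9.57, 10.04 and 10.27 to 6.57, 6.9 and 7.12, and its second probe set by -3.02 ± 0.10. Cd99, a leukocyte and tumour adhesion protein, fell by -2.25 ± 0.06 from 9.55, 9.64 and 9.7 to 7.23, 7.37 and 7.6. At these 3 genes the gap between the genotypes was several times the range within either.

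Some of the 15 genes with the largest fall encode proteins of the extracellular matrix, its enzymes or secreted ligands. Mmp2, gelatinase A, lay at 8.68, 8.93 and 9.26 in APC-WT and at 6.26, 7.12 and 7.64 in APC-KO tumours (-1.81 ± 0.14). The protease Adamts9 fell by -2.04 ± 0.07 on its brightest probe set and by -3.07 and -0.43 on the others. The small proteoglycan Ogn fell by -1.67 ± 0.21, Mgp, an inhibitor of calcification, by -1.67 ± 0.21, and Tinagl1, a matricellular protein, by -1.38 ± 0.09. Chst15, which sulfates chondroitin chains, fell by -2.08 ± 0.09, and the guidance ligand Sema3d by -1.48 ± 0.16. Of 11 tested markers of fibroblasts, which make much of the matrix, 6 rose, against 20.9% of all tested genes, and none fell. Only 2 of them held in both states. The mean level of the 11 overlapped, at 9.04 to 9.4 in APC-WT and 9.23 to 9.57 in APC-KO tumours. Whether those cells had a part in the falls was not tested.

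Arap2, an Arf GTPase-activating protein, was under the floor on all 6 APC-KO arrays and at least 2.67-fold lower against it (4.68, 4.98 and 5.35 against 6.68, 6.95 and 7.17). Ms4a4d, of the MS4A membrane family, showed the least even fall of the 15. Its 3 APC-WT tumours without Dox read 7.74, 7.56 and 7.85 and those with Dox 5.48, 6.08 and 6.12, while the APC-KO tumours read 4.04 to 5.41, all under the floor. The difference was -2.73 without and -1.31 with Dox, measured in part under the floor and therefore not exact, and the interaction did not pass. The glutathione transferases Gstt1 and Gstt2 fell by at least 1.80-fold and 1.73-fold against the floor. Other falls past 2-fold, again picked after their values were seen, were the phosphatase Ptprk (-1.37 ± 0.10), the complement protease C1s1 (-1.33 ± 0.11), the estrogen receptor Esr1 (-1.16 ± 0.08) and the transcription factor Sox2 (-1.19 ± 0.19), whose genotypes overlapped.

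**Figure D2:**
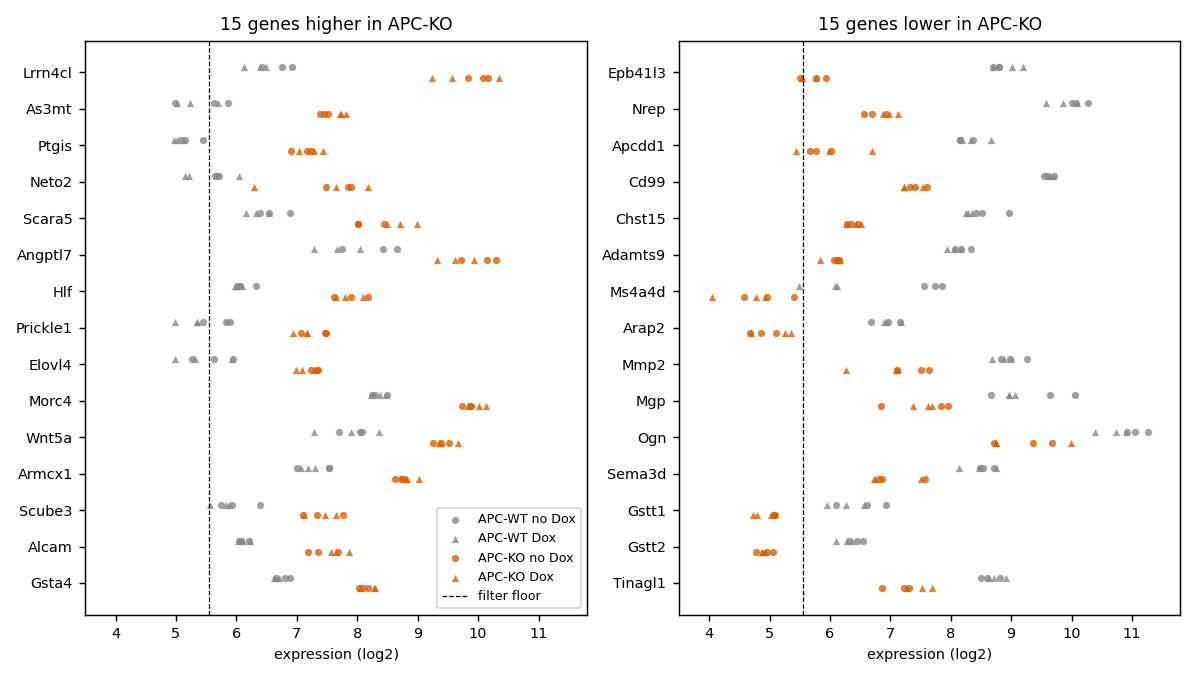
Points are log2 values of the 12 tumours for the 15 genes with the largest rise (left) and the 15 with the largest fall (right) among those that held in both Dox states without overlap; grey is APC-WT, orange APC-KO, circles no Dox and triangles Dox. The genotypes separate at every gene, and the dashed line is the floor of 5.55, under which all APC-WT values of Ptgis and all APC-KO values of Ms4a4d, Arap2, Gstt1 and Gstt2 lie.

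Promoter sequences were read from RefSeq (GRCm38.p6) for 8957 of the 11070 tested genes, as windows of 300 bases around the start. The letters searched were CTTTGAT and CTTTGTT, both of the kind bound by TCF/LEF factors, with their reverse complements ATCAAAG and AACAAAG, so on both strands; both motifs begin with the same CTTTG, and a stretch can match only 1 of them. At least 1 CTTTGAT or ATCAAAG was in the window of 3.0% of tested genes with a promoter, of 1 of 36 genes at least 2-fold higher (2.78%) and of 1 of 24 at least 2-fold lower (4.17%). Either motif was in 7.35%, 5.56% and 12.5% of them, and in 9.33% of all 32851 windows. For 23 named genes the windows were looked at one by one. Some named genes, Nrep and Apcdd1 among them, were not part of the 23, and motifs near their starts were not looked at singly. Among the 23 the motifs were seen in the windows of Ms4a4d and Armcx1. Those windows are shown with the match in capitals, together with the first of 3 listed windows of Epb41l3, the gene with the largest fall, which has none. They are on the plus strand, at chr19:11536544-11536843, chrX:134717688-134717987 and chr17:69075427-69075726.
Ms4a4d: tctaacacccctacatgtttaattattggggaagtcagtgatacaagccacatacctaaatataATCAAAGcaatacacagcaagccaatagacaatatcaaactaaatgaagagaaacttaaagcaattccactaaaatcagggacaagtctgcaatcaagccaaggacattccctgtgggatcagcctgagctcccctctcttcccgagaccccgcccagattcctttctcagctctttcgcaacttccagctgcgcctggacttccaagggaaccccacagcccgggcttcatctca
Armcx1: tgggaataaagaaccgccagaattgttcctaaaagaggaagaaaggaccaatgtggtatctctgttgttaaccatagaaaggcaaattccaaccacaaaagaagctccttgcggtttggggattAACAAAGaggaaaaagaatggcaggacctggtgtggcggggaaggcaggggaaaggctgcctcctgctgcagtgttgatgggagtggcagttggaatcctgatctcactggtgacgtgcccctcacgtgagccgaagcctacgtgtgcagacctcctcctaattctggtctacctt
Epb41l3: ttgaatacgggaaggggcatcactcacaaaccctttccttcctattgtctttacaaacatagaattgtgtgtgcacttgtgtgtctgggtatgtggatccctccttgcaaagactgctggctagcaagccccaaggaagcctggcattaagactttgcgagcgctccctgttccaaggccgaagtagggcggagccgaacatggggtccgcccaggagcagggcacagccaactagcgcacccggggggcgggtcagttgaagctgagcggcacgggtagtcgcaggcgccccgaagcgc
In Ms4a4d the match begins 186 bases before the start and in Armcx1 126 bases before it. A match is a run of letters and no measured site.

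The tested targets of beta-catenin did not rise as a group. Of 14 tested targets 2 rose, 3 fell and 9 did not pass. The share that passed was near the 36.5% of all tested genes. Their median was 0.038 against 0.014 for all genes, and 18 of the 32 listed were not tested. Lef1, a partner of beta-catenin, lay at 6.47, 6.73 and 6.82 in APC-WT and at 6.9, 7.15 and 7.4 in APC-KO tumours (0.44 ± 0.06, adjusted p 1.60e-04), and the weak rise of Bambi (0.22 ± 0.06) did not hold in both states. Apcdd1, an inhibitor of Wnt signalling at the membrane, fell: 8.15, 8.25 and 8.66 in APC-WT and 5.43, 5.87 and 6.69 in APC-KO tumours (-2.38 ± 0.16). The other 5 probe sets of Apcdd1 read between -2.34 and -0.06, and the average of all 6 was -1.45. Ccnd1, cyclin D1, fell by -0.23 ± 0.03. Axin2, the feedback inhibitor most used as a readout, read 6.26, 6.4 and 6.54 against 6.16, 6.43 and 6.57 (0.01 ± 0.09, adjusted p 0.93), and Myc read 0.06. The genotypes overlapped at both, and Lgr5, Nkd1, Notum, Sp5 and Ascl2 had means under the floor in both genotypes. Rnf43, a Wnt feedback gene also set aside by the floor, read higher in APC-KO tumours. It lay at 4.01 to 4.68 in APC-WT and at 5.12 to 5.85 in APC-KO tumours.

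In the complex that degrades beta-catenin 3 of 18 tested genes rose, 3 fell and 12 did not pass. The share that passed was near the 36.5% of all tested genes. The tankyrase Tnks (0.26 ± 0.04) and the ubiquitin ligase subunit Btrc (0.27 ± 0.05) rose and Dvl1, which relays the signal of Frizzled receptors, fell (-0.26 ± 0.03). These differences were small, and that of Btrc turned to -0.04 when its probe sets were averaged. Ctnnb1, beta-catenin itself, read -0.01 ± 0.02.

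Of 27 ligands and receptors of the Wnt family 8 rose, 2 fell and 17 did not pass, a share near the 36.5% of all tested genes, but single members differed by more than 2-fold. Wnt5a, a ligand that acts mostly outside the beta-catenin route, lay at 7.29, 7.97 and 8.36 in APC-WT and 9.26, 9.38 and 9.66 in APC-KO tumours, and 3 of its 4 probe sets gave 1.43 to 1.54. Dkk2, a secreted modulator of the LRP co-receptors, rose by 1.11 ± 0.08 (8.55, 8.77 and 9.3 to 9.79, 9.95 and 10.3). Of the receptors Fzd8 rose by 1.01 ± 0.09 and Fzd5 by 0.74 ± 0.06, the latter with a dim second probe set at -0.09. The ligand Wnt7b fell by -0.67 ± 0.08. With replicate 3 of APC-WT no Dox left out 5 of the 27 rose and 4 fell, and with replicate 3 of APC-WT Dox left out 5 rose and 2 fell.

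Genes of TGF-beta and BMP signalling went both ways: 6 of 26 rose and 7 fell, against 20.9% and 15.6% of all tested genes. Grem1, a secreted BMP antagonist, lay at 8.6, 8.97 and 9.4 in APC-WT and 10.03, 10.41 and 10.75 in APC-KO tumours (1.40 ± 0.12), and the latent TGF-beta binding proteins Ltbp1 (0.84 ± 0.06) and Ltbp2 (0.89 ± 0.13) rose; for Ltbp1 the 2 dim probe sets read -0.06 and 0.09, and the average of all was 0.293. Id3, a BMP-responsive inhibitor of transcription factors, fell by -1.02 ± 0.10 (8.02, 8.29 and 8.35 to 6.58, 7.29 and 7.55), and so did Smad3 (-0.44 ± 0.04) and Smad5 (-0.41 ± 0.05). The 3 extracellular proteins were thus higher and Id3 with these Smads lower in both Dox states.

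Of 18 ERK feedback and EGF family genes 7 fell, 4 rose and 7 did not pass. Of all tested genes 15.6% fell and 20.9% rose, and 5.05% fell in both states. All 4 of the list that held in both states fell. These were the ligand Tgfa (-0.84 ± 0.14), the receptor Erbb3 (-0.69 ± 0.11), and the feedback inhibitors Spry1 (-0.57 ± 0.07) and Dusp6 (-0.42 ± 0.03). Ier3 passed for the mean (0.77 ± 0.17) with 1.53 without and 0.02 with Dox. Among 15 YAP/TAZ targets 5 fell, with Ptpn14 (-0.75 ± 0.06) and Amotl1 (-0.41 ± 0.05) in both states, and 1 rose, Ccn2 (0.59 ± 0.16). Between 3 and 6 of them fell when single arrays were left out, with 3 for replicate 3 of APC-WT no Dox, replicate 3 of APC-KO no Dox or replicate 2 of APC-KO Dox. In the Notch list 4 of 15 rose and 1 fell. The receptors Notch4 (0.59 ± 0.09) and Notch3 (0.42 ± 0.08) were higher and Rbpj, the DNA-binding partner of Notch, lower (-0.43 ± 0.06). In the YAP/TAZ and Notch lists the share that passed was near the 36.5% of all tested genes.

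Junction genes of epithelium fell where they passed, 4 of 11, with none higher. The share that passed was near the 36.5% of all tested genes, of which 15.6% were lower. The plakophilins Pkp3 (-0.85 ± 0.09) and Pkp2 (-0.78 ± 0.12), plaque proteins of desmosomes, held in both states. Krt8 averaged -1.21 ± 0.29 with wide overlap, 9.35, 9.85 and 11.65 against 7.2, 9.07 and 10.09, and did not pass with Dox (adjusted p 0.0555). The mesenchymal list gave 4 higher and 2 lower of 15, also near the share of all tested genes. Snai2 read 0.48 ± 0.08 and Tnc, tenascin C, -0.94 ± 0.15.

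Collagens split, 5 of 20 higher and 4 lower, against 20.9% and 15.6% of all tested genes. Col8a1 rose from 7.86, 8.37 and 8.81 to 9.19, 9.52 and 9.77 (1.14 ± 0.11) and Col5a1 by 0.61 ± 0.07 on its brightest probe set. The other 2 probe sets of Col5a1, both well over the floor, read 0.045 and -0.006, so its rise rests on 1 probe set. Col7a1, of the anchoring fibrils of epithelium, fell by -0.93 ± 0.10 and Col18a1, of basement membranes, by -0.87 ± 0.06. Among matrix proteases and their inhibitors 7 of 17 fell and 4 rose, against 15.6% and 20.9% of all tested genes. Beside Mmp2 only Plat, the tissue plasminogen activator (0.65 ± 0.07), held in both states. Mmp13 read 0.29 without and -2.11 with Dox. Falls in this list numbered 4 when replicate 2 of APC-WT Dox, replicate 2 of APC-KO no Dox, or replicate 2 or 3 of APC-KO Dox was left out. Rises numbered 2 for replicate 3 of APC-WT Dox, replicate 3 of APC-KO no Dox or replicate 2 of APC-KO Dox.

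Guidance genes of the ephrin, semaphorin and plexin families gave 7 of 28 higher and 8 lower, against 20.9% and 15.6% of all tested genes. The ephrins moved apart, Efna4 by 0.70 ± 0.07 and Efna5 by -0.71 ± 0.06, each with no overlap between genotypes, and the receptor Nrp2 fell by -0.50 ± 0.04. Of 26 homeobox and developmental transcription factors 4 rose and 6 fell, a share near the 36.5% of all tested genes. Sox2 was the 1 that held in both states (6.56, 7.24 and 7.62 against 5.27, 6.13 and 6.76).

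The glutathione and NRF2 list had 9 of 23 higher and 3 lower, against 20.9% and 15.6% of all tested genes. NRF2 is the transcription factor of the oxidative stress response, held down by KEAP1. Keap1 itself fell by -0.94 ± 0.06 (mean 8.83 in APC-WT and 7.89 in APC-KO), and Nqo1, a classical NRF2 target, rose by 1.00 ± 0.08, from 7.0, 7.12 and 7.36 to 7.95, 8.14 and 8.49. Gsta4, Gstm1 (0.94 ± 0.07), Gstp1 (0.40 ± 0.03) and Gclc (0.42 ± 0.05), the catalytic subunit for glutathione synthesis, also rose in both states. Other NRF2 targets did not pass, Txnrd1 (0.09 ± 0.04) and Hmox1 (-0.15 ± 0.23) among them. Gstt1 went the other way, together with its neighbours. Of the aryl hydrocarbon receptor list 5 of 12 genes were tested and 3 rose, or 2 with medians equalized. They were the receptor Ahr (0.45 ± 0.08), Nqo1, already counted above, and the chaperone Hsp90aa1. The rise of Hsp90aa1 was small (0.15), and its call was lost with probe sets averaged. Of 11 metallothionein and zinc transporter genes 4 rose and 4 fell, against 20.9% and 15.6% of all tested genes. Slc39a8, a zinc and manganese importer, rose by 1.19 ± 0.16, and Mt1 and Mt2, the metallothioneins, were lower for the mean (-0.47 and -0.90) with 0.14 and -0.20 without and -1.09 and -1.60 with Dox.

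Metabolic lists moved little. Of 32 oxidative phosphorylation genes 11 rose and 4 fell, at most by 0.47 ± 0.05 for Ndufa5 of complex I; of 20 glycolysis genes 4 rose and 6 fell, with Pfkp (-0.32 ± 0.06) and Pfkm (-0.31 ± 0.05), forms of phosphofructokinase, lower in both states. In fatty acid and cholesterol synthesis 7 of 26 rose, of which the desaturase Scd1 (0.51 ± 0.09) held in both states. None of the 26 fell, although 4 did when replicate 2 of APC-WT no Dox was left out and 2 when replicate 1 of APC-KO no Dox was. The count of rises was 4 on leaving out 1 of 5 arrays (replicates 2 and 3 of APC-WT Dox, replicates 1 and 2 of APC-KO no Dox, replicate 3 of APC-KO Dox). Ribosome assembly had 10 of 27 higher and 1 lower, led by Rrp12 (0.51 ± 0.08) and Nolc1 (0.49 ± 0.05). HIF targets had 6 of 18 higher and 2 lower, but their median was 0.328 without and -0.21 with Dox, so the mean effect averages unlike values. Targets of p53 had 4 of 18 higher and 5 lower, with 2 higher on leaving out 1 of 5 arrays (replicate 2 of APC-WT no Dox, replicates 1 and 2 of APC-WT Dox, replicate 1 of APC-KO no Dox, replicate 3 of APC-KO Dox). Mitosis and replication genes had 6 of 33 higher and 4 lower. The ATF4 list had 1 of 21 higher and 4 lower, with Ddit3, the factor CHOP, at -0.51 ± 0.08, and the ER chaperone list 3 of 20 higher and 2 lower. Of all tested genes 36.5% passed.

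Tryptophan and kynurenine genes were mostly dim, and 8 of 21 were tested. Kyat3, a kynurenine aminotransferase, rose by 0.63 ± 0.07, from 7.48, 7.82 and 8.07 to 8.29, 8.43 and 8.61, and held in both states. Afmid (-0.33 ± 0.07), the formamidase after TDO2, and Haao (-0.21 ± 0.07) passed for the mean only.

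Markers of T cells and cytotoxic cells were lower in APC-KO tumours. Of 8 tested T cell markers 6 fell and none rose (median -0.66), where 15.6% of all tested genes fell. Of the 6, 5 fell in both states, against 5.05% of all tested genes. The count in both states was 3 when replicate 2 or 3 of APC-WT Dox, or replicate 2 or 3 of APC-KO Dox, was left out. Cd3g, of the T cell receptor complex, lay at 6.99, 7.63 and 8.14 in APC-WT and 5.86, 6.85 and 7.03 in APC-KO tumours (-1.0 ± 0.17, adjusted p 3.83e-04). Cd8b1 fell by -0.97 ± 0.14 and Cd8a by -0.74 ± 0.11, both without overlap, whereas Cd4 read 0.03 ± 0.05 close to the floor. The mean of the 8 markers ran from 6.45 to 7.17 in APC-WT and from 5.91 to 6.53 in APC-KO tumours, so the genotypes overlapped slightly. In bulk tumours, fewer cells of a type and less RNA per cell cannot be told apart.

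Of 11 markers of NK and cytotoxic cells 8 fell and none rose (median -0.77), where 15.6% of all tested genes fell. Of these 8, 3 fell in both states, against 5.05% of all tested genes. They were perforin, Prf1 (-0.90 ± 0.13), Nkg7 (-0.77 ± 0.11) and Klrd1 (-0.54 ± 0.11). Of the 11, 1 fell in both states when replicate 2 or 3 of APC-WT Dox or replicate 3 of APC-KO Dox was left out, and 1 rose for the mean without replicate 1 of APC-WT no Dox. The granzymes Gzmd, Gzme and Gzmf passed for the mean (-2.07, -1.41 and -1.81) but read 0.06, -0.13 and -0.12 without Dox and -4.21, -2.69 and -3.50 with it, and none passed the interaction test. Their mean effect is thus the average of unlike values. Of 12 checkpoint genes 2 rose and 3 fell, where 36.5% of all tested genes passed. Among those that fell were the receptor Lag3 (-0.65 ± 0.08) and the ligand Cd274 (-0.48 ± 0.12). Cxcr6, a chemokine receptor of resident T cells that is in no list and was picked after its values were seen, fell by -1.11 ± 0.19. Ptprc, the CD45 of all leukocytes, read 10.69, 10.83 and 11.13 against 10.79, 10.96 and 11.01 (0.08 ± 0.06) and did not pass.

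Genes of antigen presentation fell with these markers, 11 of 18 with none higher (median -0.24), where 15.6% of all tested genes fell. Of the 11, 8 fell in both states, against 5.05% of all tested genes. The count in both states was 5 when replicate 1 or 3 of APC-WT no Dox was left out. Nlrc5, the activator of class I genes, lay at 8.88, 9.34 and 9.64 in APC-WT and 8.42, 8.71 and 8.86 in APC-KO tumours (-0.65 ± 0.08). The peptide transporter Tap1 (-0.47 ± 0.08) and the tapasin-like Tapbpl (-0.55 ± 0.08) fell. So did the immunoproteasome subunits Psmb9 (-0.53 ± 0.07), Psmb10 (-0.42 ± 0.07) and Psmb8 (-0.35 ± 0.06), while the heavy chains H2-K1 and H2-D1 moved by -0.19 and -0.13. Interferon-stimulated genes had 16 of 29 lower, against 15.6% of all tested genes, and none higher, but only Zbp1 and Irf1 held in both states. Their median was -0.62 without and -0.047 with Dox, a difference not tested for the list. Their mean level was 9.43 to 9.73 in the APC-WT no Dox tumours and 8.56 to 9.26 in the other groups. Leaving out single arrays gave 12 to 24 lower, the highest without APC-KO no Dox replicate 3. Cxcl9 (-0.52 ± 0.16) and Cxcl11 (-0.53 ± 0.15), chemokines that interferon induces, were among 8 of 20 chemokines that fell for the mean, against 15.6% of all tested genes. Another 1 of the 20 rose and held in both states, though not after quantile normalization or with medians equalized. None of the 8 that fell held in both states. The count of falls was 4 or 5 on leaving out replicate 2 or 3 of APC-WT Dox, replicate 2 of APC-KO no Dox or replicate 3 of APC-KO Dox. Of 19 inflammatory cytokine and NF-kB feedback genes 4 rose and 1 fell, where 36.5% of all tested genes passed. The fall of T cell markers and that of presentation genes occurred in the same tumours, and their part in each other was not tested.

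Fibroblast markers had 6 of 11 higher and none lower (median 0.165), where 20.9% of all tested genes were higher. The largest of these rises was that of Dpt (1.04), and Mfap5 (0.60 ± 0.12) and Pdgfra (0.48 ± 0.05) held in both states. Markers of endothelium and pericytes had 5 of 10 higher and 1 lower, against 20.9% and 15.6% of all tested genes. Among them the pericyte gene Rgs5 lay at 8.04, 8.56 and 8.96 against 9.03, 9.38 and 9.58 (0.83 ± 0.13). The mean level of the 10 markers was 7.12 to 7.55 in APC-WT and 7.51 to 7.62 in APC-KO tumours. Macrophage markers had 2 of 15 higher and 3 lower with a median of 0.025, and the share that passed was near the 36.5% of all tested genes. Of the sparse lists, 1 of 3 neutrophil markers rose (Csf3r). The other two, S100a8 and S100a9, were higher without and lower with Dox, so that the median of the 3 was 2.94 without and -2.13 with Dox and their mean effect averages unlike values. Of the rest, 1 of 5 dendritic cell markers rose (Batf3, 0.40 ± 0.06) and 1 fell, the 1 tested B cell marker Ighm rose (0.39 ± 0.13), and 1 of 2 mesothelial markers, Msln, fell (-0.51 ± 0.09). The single tested markers of smooth muscle (Des) and cecal epithelium (Zg16) and the 2 of adipocytes did not pass. No marker of mast cells or erythroid cells reached the floor.

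**Figure D3:**
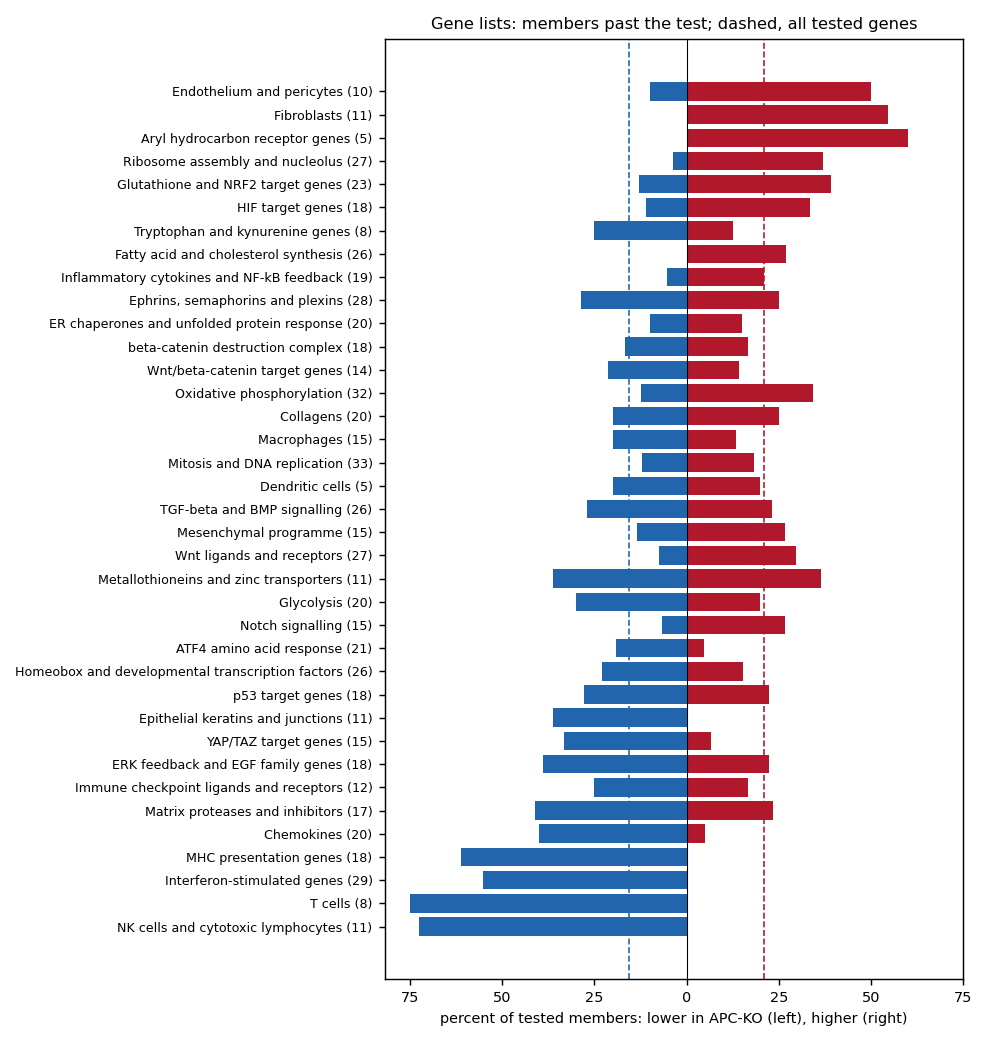
Bars give the percent of tested members of each list that were higher (red, right) or lower (blue, left) in APC-KO tumours for the mean effect, with the number tested in brackets and lists ordered by their median difference; lists under 5 tested members are not drawn. Dashed lines mark all tested genes, 20.9% higher and 15.6% lower, and the blue bars of T cell, cytotoxic, interferon and presentation genes reach far past the latter with no red bar opposite.

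Genes that held in both states were not spread evenly over the chromosomes, a property the rule did not use. Genes were placed by their order in RefSeq GRCm38.p6. On chromosome X 31.5% of tested genes held in both states, 91 higher and 12 lower. On chromosome 10 the share was 24.5% (44 higher, 88 lower), on 19 it was 21.8% (77 higher, 10 lower), on 13 it was 16.7% (7 higher, 61 lower), and on chromosome 7 only 5.45%. Windows of 25 consecutive tested genes whose median was at least 0.3 in size were joined into runs, a rule set after the data were seen, and no test was made of it.

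The longest such run lay on chromosome X from P2ry10b to Erdr1, the last tested gene there. It held 106 tested genes, of which 95 passed (89.6%), 82 were higher and 1 lower in both states, and 98 lay above 0. Its median was 0.74, with 0.67 without and 0.75 with Dox. The median of its genes, as the deviation from each gene's mean, lay between -0.42 and -0.24 on the APC-WT arrays and between 0.30 and 0.38 on the APC-KO arrays. Every APC-KO tumour therefore lay above every APC-WT tumour by a similar step, and most neighbours shared it. Of the 82 genes past 2-fold, 11 were in this run. They include Morc4, Armcx1, Armcx2 (1.13 ± 0.06), Rnf128, a ubiquitin ligase of T cell anergy (1.35 ± 0.07), Pir (1.27 ± 0.07), Vegfd and the midline protein Mid1 (1.06 ± 0.09). Genes of the run that did not lie above 0 were P2ry10b, Itm2a, Sh3bgrl, Chm, Armcx3, Col4a5, Tlr7 and Erdr1. Xist, the RNA of the inactive X, had a mean under the floor (4.16 to 4.74), and the Y-linked Eif2s3y did not pass (0.05 ± 0.09).

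On chromosome 10 a run from Stx7 to Nus1 of 71 genes had a median of 0.36, with 37 genes higher and 1, Ptprk, lower in both states, while the chromosome as a whole had a median of -0.11. Its level lay between -0.24 and -0.07 on APC-WT and between 0.11 and 0.19 on APC-KO arrays. Shorter runs lay lower on chromosome 13, from Gdi2 to Ggps1 (29 genes, median -0.29), and on chromosome 15, from Ccnt1 to Lima1 (25 genes, median -0.30, none above 0). The run on 13 held the aldo-keto reductases Akr1c12 (-1.15 ± 0.11) and Akr1c13 (-1.08 ± 0.09), and that on 15 held Wnt10b. Outside the 4 runs 1203 of 10805 tested genes held in both states (11.1%), 674 higher and 529 lower, with 66 of those past 2-fold. The runs thus held a minority of the genes, and Lrrn4cl, Epb41l3, Nrep and Wnt5a lay outside them.

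**Figure D4:**
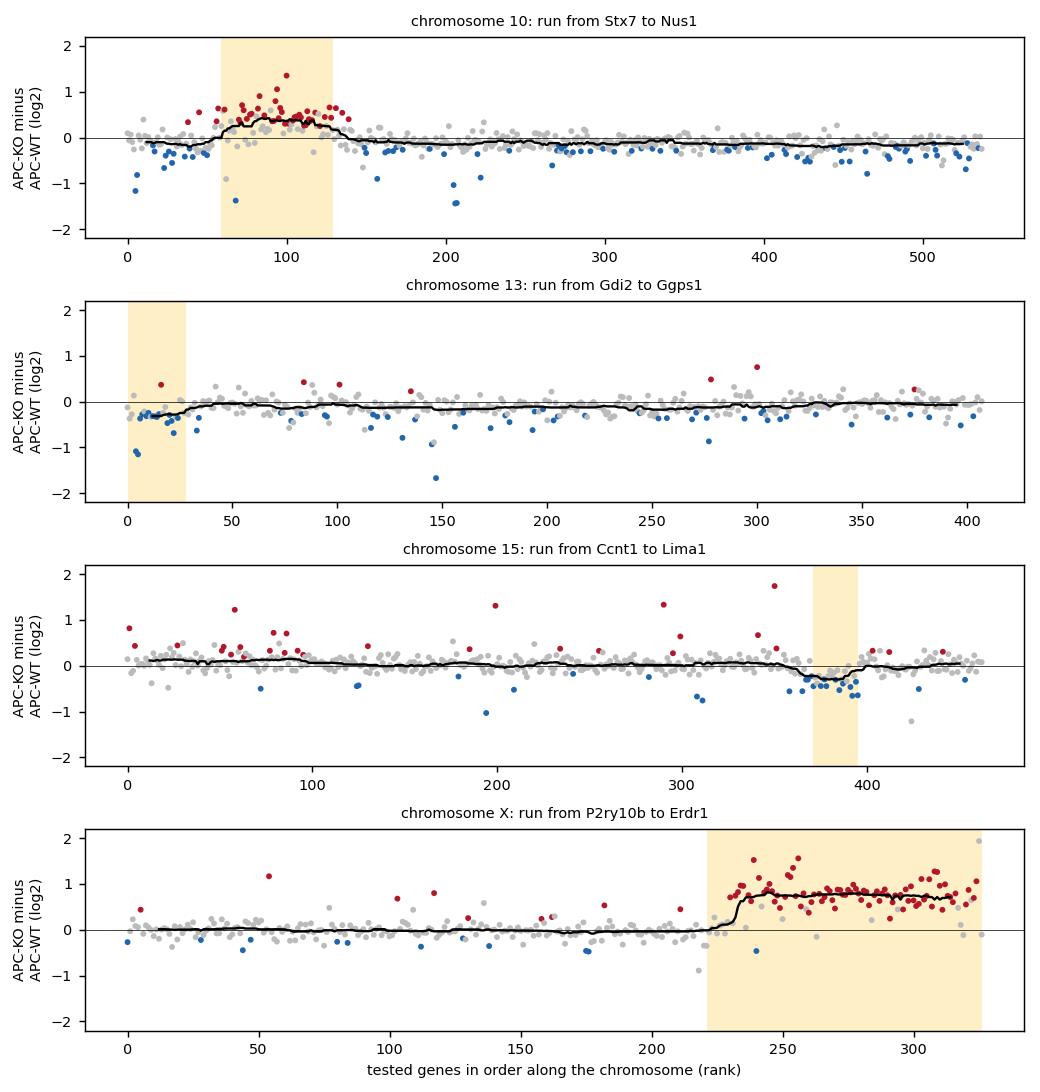
APC-KO minus APC-WT (log2) of each tested gene in order along chromosomes 10, 13, 15 and X; red and blue genes hold in both Dox states, grey genes do not, the line is the median of 25 genes and the shaded band is the run. On chromosome X the line steps from about 0 to a level near its run median of 0.74 and stays there to the end.

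Some of the largest differences stood in small clusters of neighbours. Beside Lrrn4cl on chromosome 19 the next tested genes Ubxn1 (0.52 ± 0.04), Uqcc3 (0.73 ± 0.08) and Ints5, an Integrator subunit (1.03 ± 0.04), rose in both states. Ganab did not pass (0.08 ± 0.06). Beyond it B3gat3 (-0.60 ± 0.06), Eml3 (-0.59 ± 0.06), Mta2 (-0.73 ± 0.05) and the large scaffold protein gene Ahnak (-1.21 ± 0.03) fell in both, and Asrgl1 rose again (0.89 ± 0.07). Ahnak was bright and tight, 12.28, 12.38 and 12.42 against 11.04, 11.13 and 11.31. Within 10 tested genes the direction turned from higher to lower and back.

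Around Apc on chromosome 18 the largest difference was that of Nrep, 2 tested genes away. Between them Epb41l4a did not pass (-0.26 ± 0.11), and beyond Nrep Stard4 fell by -0.49 ± 0.09 in both states. On the other side Srp19 (-0.12 ± 0.04) and Reep5 (0.11 ± 0.04) differed slightly for the mean. Tslp, an epithelial cytokine gene 5 tested genes from Apc, averaged 1.53 ± 0.44 but spread from 5.2 to 8.39 among APC-KO tumours and passed in neither state. Paralogs that stand next to each other also moved together, Gstt1, Gstt2 and Gstt3 (-1.04 ± 0.07) on chromosome 10 and Akr1c12 with Akr1c13. Paralogs of similar sequence can share probes, so their values may not be independent, and how alike these genes are was not tested.

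**Figure D5:**
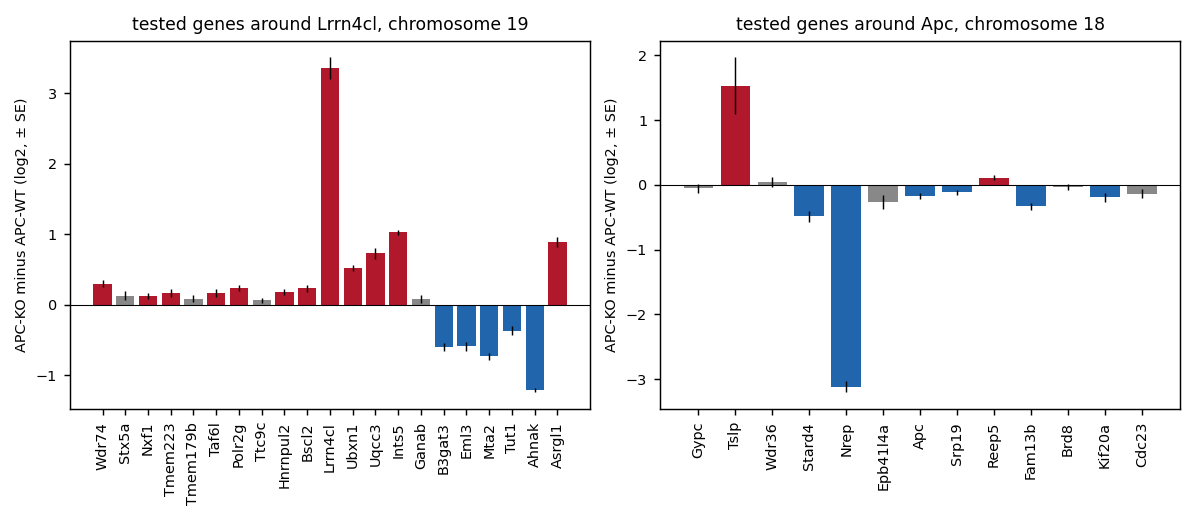
Bars are APC-KO minus APC-WT (log2) with the standard error for tested genes in order around Lrrn4cl (left) and around Apc (right); red and blue bars passed for the mean effect and grey bars did not. Lrrn4cl at 3.35 is flanked by rises and then by falls down to -1.21 at Ahnak, and near Apc the largest bars are Nrep at -3.12 and Tslp at 1.53.

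Where the genotype difference looked unequal between Dox states, the 5 genes of smallest interaction p among those that passed for the mean were H2ac19 (0.87 without and -0.10 with Dox), Eif1ad (0.38 and -0.03), Serp1 (0.29 and -0.07), Lyz1 (0.04 and -0.23) and Cdh26 (-1.24 and -0.22). None of them passed the interaction test, and none held in both states. Of the 82 genes past 2-fold, 10 had an unadjusted interaction p under 0.05.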

How the data were processed

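RNA of 12 tumours was measured on Affymetrix arrays from biotinylated cRNA, per the labels' protocols. The log2 values were deposited by the authors; MAS5 is named in the submitters' processing notes, without a version, while the steps of scaling, background and log transformation were not given in the sources used. That they are log2 was read from their range, 1.86 to 14.16. For arrays the number of samples limits precision.

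Of 45101 probe sets 64 were controls, 34945 had 1 symbol, 932 several and 9160 none; 34741 matched RefSeq by Entrez identifier. Each gene was read by its brightest probe set. The floor of 5.55 is a filter, not a background. Where all arrays of 1 genotype lay under it and all of the other over it, the fold is a bound against it. A model of 4 group means was fitted with limma 3.58.1 in R 4.3.3 (eBayes with a trend, 2-sided, Benjamini-Hochberg) and tested on simulated data.

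Named were Apc and Tdo2, 15 genes per direction with the largest change among those that held in both states without overlap, the 5 of smallest interaction p, and up to 4 per list, leaving out clones and Riken names; others are said to be picked after their values were seen or stand for a neighbourhood, list or marker. Members and lists were chosen with earlier results of these data known. Alternatives were the probe set rule, filter, normalization, eBayes settings, array weights, model, replicate block and leaving out arrays. Replicate numbers of the labels were not used to pair tumours. Same-numbered tumours of different groups had deviations that correlated between -0.221 and 0.175, which showed no pairing but cannot exclude a weak one. Figures used Python 3.11.15 and matplotlib 3.10.9.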

Additional observations from a re-analysis of the deposited data

Results flagged for a closer look

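Single tumours stood apart from the other 5 of their genotype at 20 of the readings below, by the gap to the nearest tumour as a share of the whole range (Dixon's 95% limit for 6 values). Chance marks about 1 in 20 such groups, and the 178 tested named genes were looked at in both genotypes. Chance alone would thus give about as many marks as the 20 seen, and the readings are listed only as a description. APC-KO Dox replicate 2 was low for Neto2 (6.287, others 7.481 to 8.177), Adamts9 (5.838, others 6.072 to 6.164), Ddit4 (8.836, others 9.925 to 10.558), Lyz2 (12.897, others 13.076 to 13.175) and Cd8a (5.555, others 6.126 to 6.439). APC-KO Dox replicate 3 was high for Gstm1 (10.081, others 9.875 to 9.948). APC-KO no Dox replicate 1 was high for Zeb1 (9.478, others 9.085 to 9.197) and Efna5 (8.382, others 8.086 to 8.194). APC-KO no Dox replicate 3 was low for Rrp12 (7.312, others 7.509 to 7.569). APC-WT Dox replicate 1 was high for Btrc (7.415, others 7.178 to 7.266). APC-WT no Dox replicate 1 was high for Chst15 (8.975, others 8.248 to 8.518), Amer1 (7.995, others 7.461 to 7.641), Amotl1 (10.376, others 10.042 to 10.146), Zeb1 (9.247, others 8.856 to 8.996) and Tslp (6.479, others 5.052 to 5.514). APC-WT no Dox replicate 2 was high for Hlf (6.319, others 5.975 to 6.089) and Msln (10.566, others 10.176 to 10.316) and low for Lef1 (6.47, others 6.69 to 6.821), Mmp9 (8.301, others 8.879 to 9.177) and Scd2 (11.241, others 12.156 to 12.288). 

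Genes set aside by the floor also carried differences. In a fit without the floor 18 of them were at least 2-fold higher and 12 at least 2-fold lower in APC-KO tumours. Pdzrn3 was over the floor in all 6 APC-WT tumours (6.75, 7.25 and 7.69) and under it in all 6 APC-KO tumours (3.49, 3.55 and 3.89), and Magea5, a cancer-testis gene of chromosome X, the reverse (3.7, 4.11 and 4.56 against 6.35, 6.54 and 7.36). Of dimmer genes, Wnt5b lay at 4.18 to 4.6 in APC-WT and 5.39 to 5.88 in APC-KO tumours, and the Wnt feedback gene Rnf43 at 4.01 to 4.68 and 5.12 to 5.85. Pdcd1, the receptor PD-1, lay at 5.45 to 6.8 in APC-WT and 4.41 to 5.43 in APC-KO tumours, and Ido1, an enzyme that opens the tryptophan ring, at 5.19 to 6.23 and 4.29 to 4.73. The lower genotype was under the floor on all arrays at each of these 4, so no exact fold is given. Of 10092 probe sets without a single gene symbol 1165 passed for the mean effect (11.5%).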

How the results depend on the processing

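The count of genes that passed for the mean effect was 4044, and it was 3459 with probe sets of a gene averaged, 4539 with array quality weights and 3288 to 3851 with 1 array left out. That of genes that held in both Dox states was 1355, with 1058 for averaged probe sets (837 shared) and 925 to 1222 with 1 array left out. Of those that passed, 57.2% were higher, 51.7% after quantile normalization and 48.5% with medians equalized. With Dox 2205 passed, 3510 under array quality weights and 1291 to 2354 with 1 array left out. The interaction count of 0 was 13 under array quality weights and 0 to 119 with 1 array left out. The brightest Apc probe set lay between -0.187 and -0.142 with 1 array left out. With a replicate block the counts were 3979 for the mean, 1332 in both states, 2705 without and 2159 with Dox, and 0 for the interaction. Deviations of same-numbered tumours had a median correlation of -0.017, against 0.0155 for tumours of other numbers. No pairing by number was seen, but groups of 3 tumours cannot exclude a weak one. Without genes of chromosome X, an alternative chosen after seeing the data, 3871 passed and 1232 held in both.

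Of 178 named genes tested, 152 kept their call and direction in every setting that could read them. With averaged probe sets Btrc turned to -0.039 and Zeb1 to -0.057. Zg16, at 0.02 and not called, read -0.003 with medians equalized and between -0.028 and 0.092 with 1 array left out, and Eif2s3y, not called either, between -0.008 and 0.111. Averaged probe sets also gave smaller values for Epb41l3 (-2.192), Scara5 (1.066), Fzd5 (0.324), Tgfa (-0.38), Ptpn14 (-0.391), Rbpj (-0.284), Amotl1 (-0.256), Efna5 (-0.443), Ahr (0.3), Pfkp (-0.157), Ddit3 (-0.268), Nolc1 (0.252) and Mt1 (-0.151, not passing). The calls of Mt1, Mmp13, Haao and Ighm were each lost on leaving out any of several single arrays, and that of Cxcl9 without APC-WT Dox replicate 3 and with robust eBayes. With 1 array left out, list counts also moved by over 1.5 times for ephrins, semaphorins and plexins (5 lower with replicate 1 of APC-KO no Dox or replicate 2 of APC-KO Dox left out), oxidative phosphorylation (2 lower without 1 of 6 arrays), metallothioneins and zinc transporters (2 lower without 1 of 5), ER chaperones (5 higher with replicate 1 of APC-WT no Dox or replicate 2 of APC-KO no Dox left out), Wnt targets (4 higher without APC-KO Dox replicate 2), macrophages (4 higher without APC-WT Dox replicate 3), and glycolysis in both states (1 lower without APC-WT Dox replicate 2). Lists with counts of 1 or 2 moved by 1 gene or more in many settings. The Apc probe sets were not refitted for averaged probe sets or without a filter, since they are already single and unfiltered. Dim signal limits the reading of Tdo2 and most crypt markers.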
